A study of Mus musculus with 24 samples.

Results

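The collagens, the matrix metalloproteinases (MMPs), the ADAMTS proteases and the tissue inhibitors of metalloproteinases (TIMPs) were taken as all genes whose name on the array is *Col* with a chain number (such as *Col1a1*), or *Mmp*, *Adamts* or *Timp* followed by a number. This gave 86 of 27398 gene names, measured by 161 of 41174 probes, with 43 collagen chains, 21 MMPs, 18 ADAMTS proteases and 4 TIMPs. They were followed in L4 and L5 dorsal root ganglia (DRGs) of adult male C57BL/6J mice after a sciatic nerve lesion, in which the nerve was cut and its endings were joined again. *Nfil3* KO mice, derived from a floxed *Nfil3* line by Cre recombination under the CMV promoter and so lacking the gene in all cells, were compared with wildtype (WT) littermates. All mice were operated under Hypnorm and Dormicum anaesthesia and received the opioid Temgesic until after the day 2 time point. For each genotype there were DRGs at day 2 and at day 5 post-lesion and control DRGs from the non-injured side, which gave 6 groups of 4 samples. The controls were thus DRGs of lesioned animals, but which control belongs to which lesioned sample, and the day of the controls, are not given in the sources used here.

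Collagens are triple helices of 3 chains that form fibrils, networks and filaments of the extracellular matrix, and in peripheral nerves and ganglia they build the basement membranes around axons and glia and the connective tissue sheaths. MMPs and ADAMTS proteases cut collagens, proteoglycans and other matrix proteins, and ADAMTS2, ADAMTS3 and ADAMTS14 remove the aminoterminal propeptide of newly made procollagens. TIMPs bind metalloproteinases and block their activity. After a nerve lesion, remodelling of this matrix accompanies the growth of axons.

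The tissue label reads DRG neurons, but the arrays measured whole ganglia. All 6 neuron, 4 satellite glia, 5 Schwann cell, 7 endothelial and mural, 6 macrophage, 4 neutrophil and 4 meninges markers were well above background in at least 4 samples. In bulk tissue, fewer cells of a type and less RNA per cell cannot be told apart. *Nfil3* log2 intensity lay between 8.44 and 11.09 in the 12 WT samples and between 2.82 and 7.59 in the 12 KO samples, and the highest KO value was that of KO control replicate 4, for which another label field gives day 5. Between 54.5% and 72.3% of probes were well above background in a sample, and each array carried 2 samples, 1 per dye. Skeletal muscle markers stood apart in 4 samples, with a log2 summed intensity of 10.73 in WT control replicate 1, 10.69 in KO day 2 replicate 1, 12.12 in KO day 2 replicate 4 and 13.28 in KO day 5 replicate 1, against 6.99 to 9.07 in the others.

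All values below are log2 intensities after background correction and quantile normalization, and the probe with the highest mean stands for a gene. Differences are log2 changes from a linear model in limma with 1 mean per group, and a lesion change is the mean of the WT and the KO change. A gene was called at a Benjamini-Hochberg adjusted p under 0.05 over all probes. Of the 86 genes, 72 were well above background in at least 4 of 24 samples. *Col4a3*, *Col10a1*, *Col6a6*, *Col17a1*, *Mmp1a*, *Mmp10*, *Mmp12*, *Mmp20*, *Adamts6* and *Adamts19* were so in 0 samples.

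A joint F test of the day 2 and day 5 lesion changes called 28 of the 86 genes (32.6%), against 26.2% of all genes on the array. All 28 were among the 72 detected members, where 36.0% of detected genes on the array were called. The share was near the background. Without the 4 control samples that shared an array with a lesioned sample, 18 members were called, all of them among the 28. This setting has fewer controls, and the share of all genes called in it was not counted. The drop can therefore not be read as particular to these members. *Mmp16*, *Timp1*, *Col7a1*, *Col6a5* and *Col5a3* were called with a change of at least 2-fold at day 2 or day 5, which is 5 of 86 genes against 4.10% of all genes, and all 5 rose. At day 2, 9 members were higher and 13 lower, against 9.48% and 12.7% of all genes. At day 5, 14 were higher and 8 lower, against 10.2% and 13.0%. Between day 5 and day 2, 6 members differed, against 3.28% of all genes. The median change of all 86 members was 0.05 at day 2 and 0.09 at day 5, where the median of all genes was -0.02 and -0.03.

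**Figure D1:**
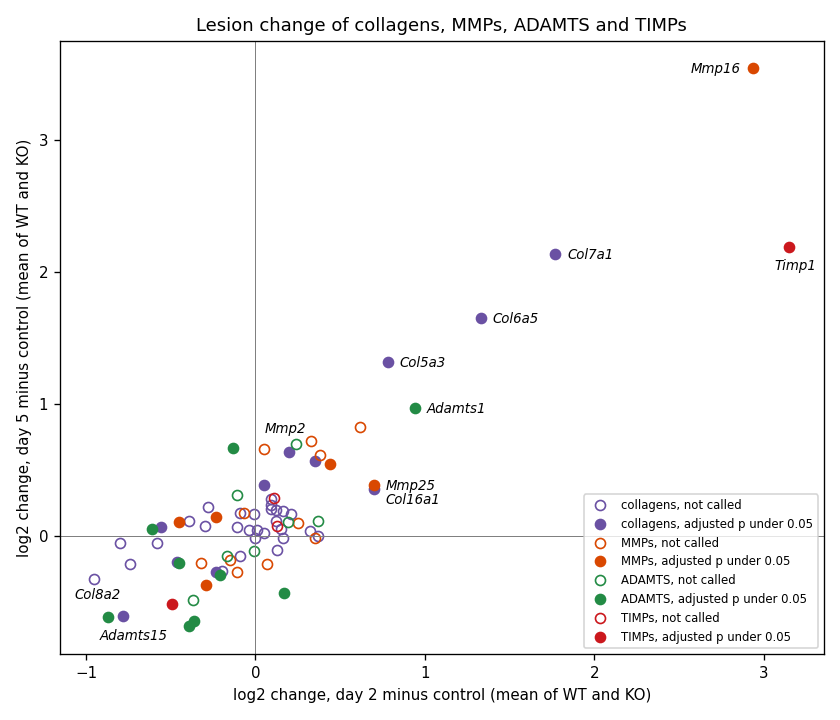
Lesion change at day 2 (x axis) and day 5 (y axis), both in log2 units and averaged over WT and KO, for the 76 genes with at least 1 sample well above background. Each point is a gene, and filled points were called in the F test. *Mmp16* (2.94 and 3.54), *Timp1* (3.15 and 2.19) and *Col7a1* (1.77 and 2.14) lie far from the other genes, most of which sit within 1 unit of 0.

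By family, the F test called 11 of 43 collagens, 6 of 21 MMPs, 9 of 18 ADAMTS proteases and 2 of 4 TIMPs. It called 26.2% of all genes and 36.0% of detected genes. Among collagens, 5 were higher and 4 lower at day 2, and 6 were higher and 2 lower at day 5. Among ADAMTS proteases, 1 was higher and 6 were lower at day 2, and 3 were higher and 4 lower at day 5. Of all genes, 9.48% were higher and 12.7% lower at day 2, and 10.2% were higher and 13.0% lower at day 5. Of the 28 called genes, 19 had another probe well above background in at least 4 samples, and in all 19 these other probes moved in the same direction on the day of the larger change.

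**Figure D2:**
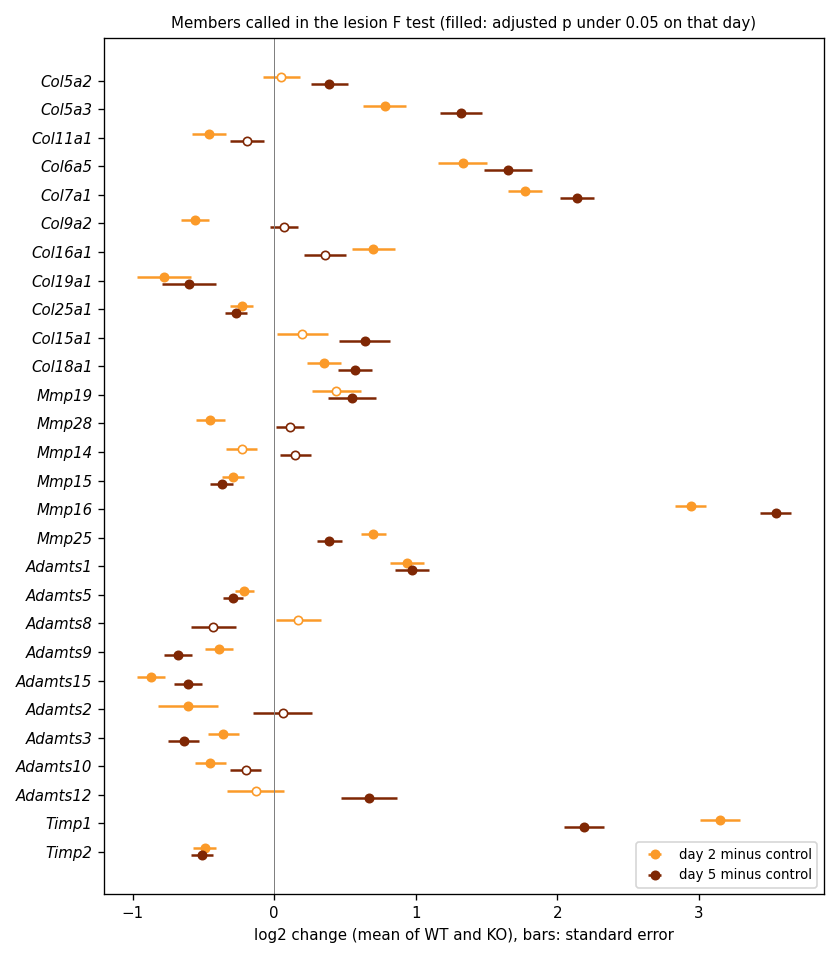
Lesion change with its standard error (bars) at day 2 (orange) and day 5 (brown) for the 28 genes called in the F test, in log2 units, averaged over WT and KO and ordered by family. Filled points passed the threshold on that day. *Mmp16*, *Timp1*, *Col7a1*, *Col6a5* and *Col5a3* exceed 1 unit, and the falls all stay within 1 unit.

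The largest change of any member was that of *Mmp16*, which encodes a membrane-type MMP (MT3-MMP) that is anchored in the plasma membrane. The array annotation, which uses mm9, places its probe at bases 18044343 to 18044402 of chromosome 4. The WT intensities were 6.38, 6.53, 6.36 and 6.00 in control DRGs, 9.37, 9.76, 9.17 and 9.34 on day 2 and 9.93, 9.86, 9.99 and 9.94 on day 5. The KO intensities followed with 6.45, 6.21, 6.49 and 6.40, then 9.28, 9.16, 8.74 and 9.55, and then 9.66, 9.85, 9.98 and 9.94. No lesioned sample came within 2 log2 units of a control sample in either genotype. The lesion change was 2.94 at day 2 (standard error 0.11, 7.7-fold, limma adjusted p = 9.62e-14) and 3.54 at day 5 (11.6-fold, adjusted p = 6.47e-15), and the further rise of 0.60 between the days was called too (adjusted p = 0.00237). With the probes of each gene averaged, that further rise was not called (adjusted p = 0.0875). A second *Mmp16* probe rose by 1.59 and 1.71 (adjusted p = 2.24e-07 and 5.82e-08).

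Of the other membrane-type MMPs, *Mmp25*, known from leukocytes, was higher on both days, by 0.70 at day 2 and 0.39 at day 5 (adjusted p = 7.87e-06 and 0.00257). Its WT values were 6.37 to 6.56 in control DRGs, 6.88 to 7.40 at day 2 and 6.82 to 7.06 at day 5, and its KO values 6.56 to 6.77, 7.19 to 7.48 and 6.78 to 7.39. All 8 samples of each day lay above all 8 control samples. *Mmp15* fell by 0.29 and 0.37 (adjusted p = 0.0151 and 0.00251), falls that were called in KO and not in WT when each genotype was tested. *Mmp14*, the membrane-type MMP that activates pro-MMP2, passed only the F test, with medians of 10.18 in control DRGs, 9.97 on day 2 and 10.27 on day 5, and this call was lost when any of 18 of the 24 samples was left out (adjusted p from 0.0511 to 0.1). *Mmp17* and *Mmp24* were not called.

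Of 15 secreted MMPs, 9 were detected in at least 4 samples. The F test called 2 of the 15 (13.3%), against 26.2% of all genes and 36.0% of detected genes. *Mmp28* (epilysin) was lower at day 2 by 0.45 (adjusted p = 0.00257) and 0.11 above control at day 5. The return of 0.56 from day 2 to day 5 was called (adjusted p = 0.00228). Tested in each genotype, the day 2 fall was called in KO and not in WT. All WT day 2 values lay within the control range of 4.95 to 5.55, and all KO day 2 values lay below it. The mean of both genotypes thus rests mainly on the KO samples. *Mmp19* was higher at day 5 by 0.55 (adjusted p = 0.0257), and this call was lost without WT control replicate 2, WT day 5 replicate 4 or KO day 5 replicate 3 (adjusted p from 0.0578 to 0.0613). Its F test call was lost when any of 17 samples was left out (adjusted p from 0.051 to 0.115). *Mmp2* (gelatinase A) was higher at day 5 by 0.72 (standard error 0.24, adjusted p = 0.0328) without passing the F test. Its lowest, median and highest intensities were 7.47, 7.75 and 8.13 in control DRGs, 6.98, 8.23 and 8.94 on day 2 and 8.29, 8.43 and 8.91 on day 5. The day 5 samples all lay above the controls, whereas the day 2 samples spread below and above them. The day 5 call of *Mmp2* was lost when any of 8 samples was left out (adjusted p from 0.0524 to 0.0663). Its F test passed when 1 of 4 samples was left out, WT day 2 replicate 3 or 4 or KO day 2 replicate 2 or 4 (adjusted p from 0.0271 to 0.0495). Over all alternatives its lowest F test adjusted p was 0.0211, so it also passed under another alternative.

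Among the 7 ADAMTS proteases that cut proteoglycans such as aggrecan and versican, *Adamts1* rose on both days and *Adamts15*, *Adamts9* and *Adamts5* fell on both days. *Adamts1* had 8.71, 8.36, 8.24 and 8.55 in WT control DRGs, 9.14, 9.49, 9.34 and 9.10 at day 2 and 9.21, 9.19, 9.31 and 9.44 at day 5. In KO mice it had 8.38, 8.27, 8.20 and 8.77, then 9.54, 9.25, 9.12 and 9.99, and then 9.46, 9.71, 9.50 and 9.43. All lesioned samples were above all controls, and the levels at the 2 days overlapped. The change was 0.94 at day 2 (adjusted p = 5.93e-06) and 0.97 at day 5 (adjusted p = 2.71e-06), and a second probe gave 0.92 and 0.88.

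*Adamts15* stood at 9.94, 9.82, 9.78 and 9.86 in WT control DRGs, at 9.03, 8.77, 8.58 and 9.11 on day 2 and 9.21, 9.29, 9.17 and 9.36 at day 5. KO mice had 9.86, 9.84, 9.89 and 9.82, then 8.73, 9.29, 9.50 and 8.86, and then 9.24, 9.16, 9.22 and 9.30. The 8 control samples, from 9.78 to 9.94, lay above every lesioned sample. It fell by 0.87 at day 2 (adjusted p = 1.4e-06) and by 0.61 at day 5 (adjusted p = 7.29e-05). *Adamts9* fell by 0.39 and 0.68 (adjusted p = 0.00797 and 3.74e-05) and *Adamts5* by 0.21 and 0.29 (adjusted p = 0.0344 and 0.00284), and the day 2 call of *Adamts5* was lost when any of 8 samples was left out. *Adamts8* was lower at day 5 than at day 2 by 0.60 (adjusted p = 0.0391), a call lost when any of 10 samples was left out.

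Of the procollagen N-propeptidases, *Adamts3* fell by 0.36 at day 2 and by 0.64 at day 5 (adjusted p = 0.0305 and 0.000273), and the day 2 call was lost when any of 7 samples was left out (adjusted p from 0.0526 to 0.0733) or with the slide as a block (adjusted p = 0.0625). *Adamts2* was 0.61 lower at day 2 on its brightest probe (adjusted p = 0.0462) and 0.06 above control at day 5, and the day 2 call was lost when any of 18 samples was left out. Another *Adamts2* probe fell on both days, by 0.80 and 0.88 (adjusted p = 8.65e-06 and 1.93e-06), so that its probes disagreed at day 5. *Adamts14* was not called. Of the remaining ADAMTS genes, *Adamts10* was lower at day 2 by 0.45 (adjusted p = 0.0076). Tested in each genotype, this fall was called in KO and not in WT. *Adamts12* and *Adamts16* were higher at day 5 by 0.67 and 0.70 (adjusted p = 0.0212 and 0.0223). The *Adamts12* call did not survive leaving out KO day 5 replicate 3 (adjusted p = 0.0517), nor the *Adamts16* call leaving out KO control replicate 4 or KO day 5 replicate 4 (adjusted p = 0.0542 and 0.0525).

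Of the TIMPs, *Timp1* rose and *Timp2* fell. *Timp1*, the inducible inhibitor, had the largest day 2 rise of all members. Its probe covers bases 20451675 to 20451733 of chromosome X. In WT mice it had 8.08, 8.07, 8.37 and 8.80 in control DRGs, 11.48, 11.84, 11.56 and 11.21 on day 2 and 11.22, 10.79, 10.79 and 10.85 on day 5. In KO mice it had 8.83, 8.84, 8.03 and 8.93, then 12.14, 11.59, 11.45 and 11.86, and then 10.36, 10.58, 10.46 and 10.46. All lesioned samples were above all controls, and all KO day 5 samples were below all KO day 2 samples. The lesion change was 3.15 at day 2 (standard error 0.14, 8.85-fold, adjusted p = 2.72e-12) and 2.19 at day 5 (4.58-fold, adjusted p = 4.86e-10), and the decline of 0.95 between the days was called (adjusted p = 0.000477). The second *Timp1* probe rose by 2.67 and 1.64. *Mmp16* and *Timp1* thus both rose by day 2, after which *Mmp16* rose further and *Timp1* declined.

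*Timp2*, which inhibits MMPs and also takes part in the activation of pro-MMP2 by MMP14, had 16.36, 16.38, 16.24 and 16.17 in WT control DRGs, 15.90, 15.80, 15.80 and 15.85 at day 2 and 15.82, 15.73, 15.90 and 15.69 at day 5. KO mice had 16.50, 16.20, 16.38 and 16.25, then 15.46, 15.96, 16.13 and 15.65, and then 15.95, 15.64, 15.90 and 15.80. No lesioned sample reached the lowest control. The fall was 0.49 at day 2 and 0.51 at day 5 (adjusted p = 0.000196 and 0.000115). *Timp3* had medians of 11.91, 12.05 and 12.28 in control, day 2 and day 5 DRGs and *Timp4* of 5.08, 5.13 and 5.17, and neither was called.

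**Figure D3:**
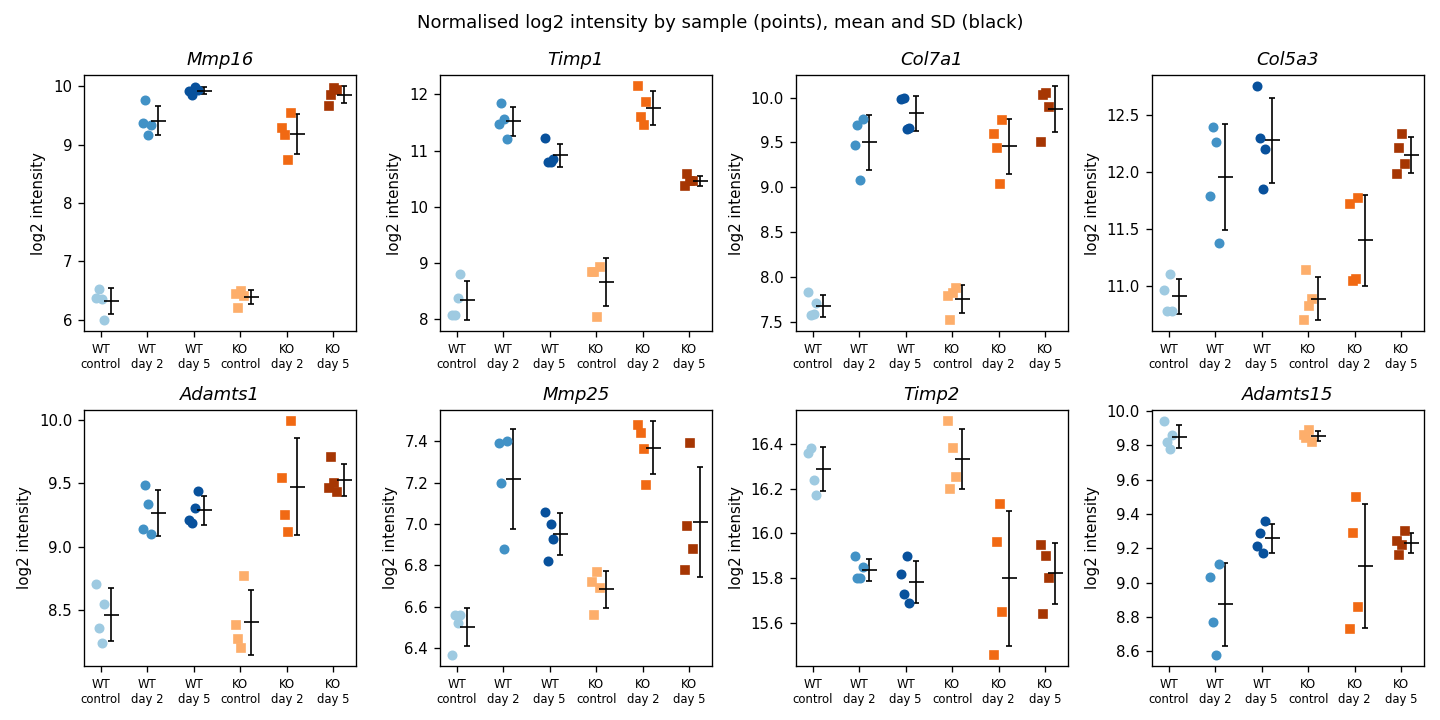
Log2 intensity (y axis) of 8 members in each sample of the 6 groups (points: circles WT, squares KO), with the group mean and SD in black. *Mmp16* rises from 6.00 to 6.53 in controls to 9.66 to 9.99 at day 5, *Timp1* is highest at day 2, and *Timp2* and *Adamts15* lie below the controls in every lesioned sample.

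The promoters of *Timp1* and *Col7a1*, which rose, are shown beside those of *Mmp3* and *Mmp13*, since the AP-1 letters were found in the latter pair and not in the former. The sequences are the 250 bases before the RefSeq start in GRCm38.p6, read 5′ to 3′ on the strand of the gene, and capitals mark the AP-1 letters TGANTCA, the CRE letters TGACGTCA or the NFIL3 letters TTANGTAA on either strand. *Timp1* is at chrX:20869916-20870165 (plus strand), *Col7a1* at chr9:108953336-108953585 (plus strand), *Mmp3* at chr9:7445572-7445821 (plus strand) and *Mmp13* at chr9:7272264-7272513 (plus strand).
Timp1: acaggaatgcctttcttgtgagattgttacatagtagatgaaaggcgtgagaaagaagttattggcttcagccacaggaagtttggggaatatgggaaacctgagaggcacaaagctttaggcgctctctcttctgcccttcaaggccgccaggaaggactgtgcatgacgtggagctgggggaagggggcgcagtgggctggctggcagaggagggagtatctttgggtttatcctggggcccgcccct
Col7a1: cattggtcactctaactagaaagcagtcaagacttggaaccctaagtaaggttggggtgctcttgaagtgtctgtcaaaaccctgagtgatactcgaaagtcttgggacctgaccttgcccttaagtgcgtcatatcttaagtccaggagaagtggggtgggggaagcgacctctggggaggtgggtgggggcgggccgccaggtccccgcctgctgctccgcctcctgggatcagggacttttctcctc
Mmp3: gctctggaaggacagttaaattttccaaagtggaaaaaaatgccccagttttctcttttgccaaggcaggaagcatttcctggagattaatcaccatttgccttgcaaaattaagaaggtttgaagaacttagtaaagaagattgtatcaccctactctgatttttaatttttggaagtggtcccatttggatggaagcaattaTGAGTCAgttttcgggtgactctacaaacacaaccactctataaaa
Mmp13: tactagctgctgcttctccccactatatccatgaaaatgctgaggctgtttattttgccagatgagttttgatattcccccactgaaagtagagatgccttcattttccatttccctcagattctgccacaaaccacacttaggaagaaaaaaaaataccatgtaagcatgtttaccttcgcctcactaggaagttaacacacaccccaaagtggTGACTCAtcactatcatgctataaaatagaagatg
Promoters were found for 64 of 86 members (70 promoters, *Mmp16* not among them). The AP-1 letters stood in 8 of these 70 and in 6.75% of 32817 RefSeq promoters of the same length. Of the 8 genes, 7 (*Mmp1a*, *Mmp3*, *Mmp7*, *Mmp10*, *Mmp12*, *Mmp13* and *Mmp20*) belong to the 8 MMP members with a promoter on chromosome 9, which lie within 420 kb. The remaining gene was *Col6a1*. Of the 7 MMP genes, 4 were well above background in 0 samples, *Mmp13* in 1, *Mmp3* in 8 and *Mmp7* in 9 of 24 samples. In this window, no AP-1 letters stood in the promoters of *Timp1*, *Col7a1*, *Col6a5*, *Col5a3*, *Adamts1* and *Timp2*. The CRE letters were found in 0 of 70 member promoters (1.55% of all), and the NFIL3 letters in 1 (2.06% of all), that of *Mmp12*.

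Among collagens, *Col7a1* rose furthest. It encodes the chain of type VII collagen, the component of the anchoring fibrils that tie basement membranes to the tissue beneath. Its probe covers bases 108886855 to 108886914 of chromosome 9 (mm9). In WT mice it had 7.83, 7.57, 7.58 and 7.71 in control DRGs, 9.47, 9.70, 9.08 and 9.76 on day 2 and 9.99, 10.00, 9.65 and 9.66 on day 5. In KO mice it had 7.79, 7.52, 7.82 and 7.87, then 9.59, 9.44, 9.04 and 9.75, and then 9.50, 10.03, 10.05 and 9.90. The lowest lesioned sample was more than 1 log2 unit above the highest control. The change was 1.77 at day 2 (standard error 0.12, 3.4-fold, adjusted p = 9.42e-10) and 2.14 at day 5 (4.39-fold, adjusted p = 3.97e-11).

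*Col6a5* encodes a chain of type VI collagen, which forms beaded filaments. It was not well above background in any of the 8 control samples, but it was in 6 of 8 samples at day 2 and in 8 of 8 at day 5. The intensities were 3.90, 3.24, 2.91 and 3.94 in WT and 3.23, 3.11, 3.89 and 3.65 in KO control DRGs, 4.92, 5.15, 4.77 and 4.60 and 5.39, 4.61, 4.32 and 4.75 at day 2, and 5.31, 5.08, 5.39 and 4.98 and 4.80, 5.01, 5.49 and 5.05 at day 5. With the control level taken as a bound, the level was at least 2.26-fold higher at day 2 and at least 2.83-fold higher at day 5. These fold bounds apply only under the background correction used here. In each control sample the bound took the dimmest well-detected signal of the array, or the signal of the *Col6a5* probe where that was brighter. The measured log2 changes of 1.33 and 1.65 moved between 0.30 and 2.68 at day 2 and between 0.40 and 3.22 at day 5 over the alternatives, the lowest without background correction or with an added offset.

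*Col5a3*, the third chain of the minor fibrillar collagen V, known from Schwann cells, had 10.96, 10.78, 11.10 and 10.78 in WT control DRGs, 11.79, 12.39, 12.26 and 11.37 at day 2 and 12.75, 12.30, 11.85 and 12.20 at day 5. In KO mice it had 10.70, 11.14, 10.82 and 10.88, then 11.72, 11.04, 11.06 and 11.77, and then 11.98, 12.21, 12.33 and 12.07. At day 5 all samples were above all controls, but 2 KO samples at day 2 lay within the control range. The change was 0.78 at day 2 (adjusted p = 0.000915) and 1.32 at day 5 (2.49-fold, adjusted p = 2.28e-06), and a second probe gave 0.64 and 0.94.

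The main fibrillar chains were not called. *Col1a1* had means of 10.95 ± 0.41 (SD, n = 4), 10.73 ± 0.76 and 11.12 ± 0.37 in WT control, day 2 and day 5 DRGs and 10.81 ± 0.36, 10.25 ± 0.81 and 10.87 ± 0.26 in KO. *Col1a2* changed by -0.09 at day 2 and 0.18 at day 5 and *Col3a1* by -0.28 and 0.22, all with adjusted p above 0.05. The basement membrane chains *Col4a1* (0.15 and 0.06) and *Col4a2* (-0.04 and 0.05) and the filament chain *Col6a1* (-0.80 and -0.05) were not called either, and the *Col6a1* F test passed only without KO day 2 replicate 4 (adjusted p = 0.0319). None of the 9 network-forming collagens was called, where the F test called 26.2% of all genes. *Col5a2* was higher at day 5 by 0.39 (adjusted p = 0.028), a call lost when any of 6 samples was left out (adjusted p from 0.0507 to 0.0666).

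Both multiplexins, the basement membrane collagens whose ends can be released as endostatin-like fragments, were higher at day 5. *Col18a1* rose by 0.35 at day 2 (adjusted p = 0.04) and by 0.57 at day 5 (adjusted p = 0.00125), and *Col15a1* by 0.64 at day 5 (adjusted p = 0.0132). The day 5 samples of both lay at or above the highest control. The day 2 call of *Col18a1* was lost when any of 9 samples was left out (adjusted p from 0.0582 to 0.0941), and a second probe of *Col15a1* was not called (0.28 at day 5).

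Of the FACIT collagens, which sit on the surface of fibrils, *Col16a1* was higher at day 2 by 0.70 (adjusted p = 0.00163). Tested in each genotype, this rise was called in WT and not in KO. *Col9a2* was lower at day 2 by 0.56 (adjusted p = 0.000515) and back at day 5. The lowest, median and highest *Col9a2* values were 8.46, 8.61 and 9.04 in control DRGs, 7.63, 8.13 and 8.46 on day 2 and 8.54, 8.70 and 9.10 on day 5. The rise of 0.63 between the days was called (adjusted p = 0.00114). *Col19a1* fell by 0.78 at day 2 and by 0.60 at day 5 (adjusted p = 0.00558 and 0.029), with the day 5 call lost when any of 6 samples was left out. The fibrillar *Col11a1* was lower at day 2 by 0.46 (adjusted p = 0.0067), a fall called in KO and not in WT when each genotype was tested. With the probes of each gene averaged, *Col19a1*, *Col15a1*, *Col25a1*, *Mmp19*, *Mmp28*, *Adamts3* and *Adamts10* were no longer called in the F test (adjusted p from 0.0506 to 0.646).

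Other genes act with these families. Of 18 genes for collagen processing, all of them detected, 5 were called in the F test (27.8%). This was near the 26.2% of all genes and below the 36.0% of detected genes. At day 2, 4 were higher and 1 lower, and at day 5, 4 were higher. *Loxl2*, a lysyl oxidase that cross-links collagen, had a lowest, median and highest intensity of 6.78, 6.96 and 7.68 in control DRGs, 7.54, 8.55 and 9.11 on day 2 and 9.28, 9.71 and 9.89 on day 5. It rose by 1.44 at day 2 (adjusted p = 1.62e-06) and by 2.63 at day 5 (6.17-fold, adjusted p = 1.91e-10). *Plod3*, which hydroxylates collagen lysines, rose by 0.63 and 0.60, *Bmp1*, which removes the carboxyterminal propeptide of procollagen, by 0.45 and 0.86, and *P4hb* by 0.21 and 0.24, while the lysyl oxidase *Loxl1* was lower by 0.58 at day 2.

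Among the genes that regulate matrix proteases, *Plaur*, *Plat* and *Plau* of the plasminogen system were higher on both days. In this system tPA (*Plat*) and uPA (*Plau*) form plasmin, and *Plaur* is the receptor of uPA. *Plaur* rose by 2.73 and 2.23 (adjusted p = 6.97e-11 and 9.19e-10), *Plat* by 0.60 and 0.82 and *Plau* by 0.55 and 0.86. *Pcsk5* and *A2m* were higher at day 5, both by 0.41. Of 13 matrix partners such as fibronectin and decorin, only lumican (*Lum*) was called, with 0.81 at day 5 (adjusted p = 0.0134). In the F test this was 7.69% of the partners, against 26.2% of all genes.

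Markers of several cell types moved with the lesion. Of 6 macrophage markers, 4 were higher at day 2 and all 6 at day 5, by 1.18 to 1.89 at day 5, and their log2 summed intensity was 10.06 to 10.99 in control DRGs, 10.62 to 11.57 at day 2 and 11.81 to 12.41 at day 5. The macrophage sums at day 2 overlapped those of the controls. Of 6 neuron markers, 4 were lower at each day and 1 was higher at day 5. All 4 satellite glia markers were called at day 2, with *Glul* and *Cdh19* higher and *Fabp7* and *Kcnj10* lower, and their log2 summed intensity was 15.06 to 15.50 in control and 14.81 to 15.14 in day 2 DRGs. The sum of 5 bone and cartilage markers was 10.50 to 10.92 in control DRGs and 8.46 to 9.74 in all lesioned DRGs, and of these 5 only *Comp*, a cartilage matrix protein, was called at day 2 or day 5, with a fall of 1.79 at day 2 and of 2.40 at day 5 (adjusted p = 3.34e-07 and 3.14e-09). The part of these cell types in the changes of the members was not tested.

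Many collagens varied strongly between samples of the same group, in particular at day 2. The values of *Col6a1* were 7.07, 8.11, 8.42 and 6.71 in WT and 7.68, 5.71, 6.29 and 8.30 in KO day 2 DRGs, against 7.21 to 8.51 in all controls. For *Col8a2*, a network collagen, the values were 6.21, 7.34, 7.28 and 5.42 in WT and 6.81, 4.52, 5.65 and 7.14 in KO at day 2. The same samples, replicates 1 and 4 in WT and 2 and 3 in KO, were the lowest in both genes.

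The summed intensity of 4 markers of the meninges (*Ptgds*, *Slc47a1*, *Slc6a13* and *Foxc1*) varied in the same way, with 11.72, 14.20, 14.27 and 12.07 in WT and 12.53, 10.14, 11.54 and 14.19 in KO day 2 DRGs. It was 10.78 to 16.19 in control DRGs and 12.65 to 15.52 at day 5. The same samples were also the lowest at day 2 in the sums of the fibroblast, Schwann cell and macrophage markers. The fibroblast sums were 14.85, 15.52, 15.80 and 14.40 in WT and 15.34, 14.20, 14.66 and 15.62 in KO day 2 DRGs. Relations of the members with these other sums were not computed, so the spread cannot be assigned to the meninges in particular. The meninges sum adds intensities before the log2 is taken, so the brightest marker, *Ptgds*, weighs most. Its control median was 14.50, against 9.14 for *Slc47a1*, 9.75 for *Slc6a13* and 8.09 for *Foxc1*. The lesion change of the 4 markers had a median of -1.17 at day 2 and 0.02 at day 5. At day 2, all 4 had an unadjusted limma p under 0.05 and 1 was called lower, and at day 5 none was called. For the 72 detected members the correlation with the meninges sum was computed over 24 samples after the group means were subtracted. The p-values from 100000 permutations within groups were adjusted over 144 relations (meninges and neutrophil markers). Of the 72 members, 20 had an adjusted p under 0.05 for r, 18 with a positive r, and 15 of these 18 were among the 39 detected collagens. For rho there were 29. At an unadjusted p under 0.05 there were 32 members (44.4%), against 21.0% of 19316 detected genes on the array, and r was above 0.8 for 6 members (8.33%), against 0.554% of these genes. The median r was 0.26 over the members and -0.03 over these genes. These relations were computed after the spread had been seen.

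The closest was *Col6a2* (Pearson r = 0.89, Spearman rho = 0.92, n = 24, permutation p = 1e-05 for both, the smallest these permutations can give, adjusted p = 0.00036 and 0.00029), and r was 0.85 without the 2 samples farthest from the median. Within Cy3 samples r was 0.94 and within Cy5 0.83, and within the 3 slides it was 0.83, 0.91 and 0.95. *Col8a1* (r = 0.88, rho = 0.93), *Col8a2* (0.85 and 0.88), *Col12a1* (0.84 and 0.90), *Col6a1* (0.84 and 0.89), *Adamts2* (0.82 and 0.87) and *Col1a1* (0.75 and 0.82) followed, with permutation p from 1e-05 to 5e-05 and adjusted p from 0.00029 to 0.00072. For these 6 genes r was 0.76 to 0.86 without the 2 farthest samples, 0.74 to 0.94 within dyes and 0.48 to 0.95 within slides. *Mmp16* (r = 0.12), *Col7a1* (0.11) and *Timp1* (0.27) did not pass (permutation adjusted p = 0.82, 0.82 and 0.6). Of the 28 genes called in the F test, 6 had an adjusted p under 0.05 for r, with a positive r for *Adamts2*, *Col5a2*, *Col5a3*, *Mmp14* and *Mmp19* and a negative one for *Timp2* (r = -0.66, rho = -0.80, permutation adjusted p = 0.02 and 0.00072). *Timp2* was still called with the meninges sum as a covariate. With the meninges sum as a covariate, *Adamts2*, *Adamts10* and *Mmp14* were no longer called in the F test (adjusted p = 0.438, 0.133 and 0.261). How much meningeal tissue each sample held was not measured.

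The neutrophil collagenase *Mmp8* and the gelatinase *Mmp9* varied with neutrophil markers (*S100a8*, *S100a9*, *Ngp* and *Camp*). *Mmp8* had 5.82, 5.79, 7.67 and 7.23 in WT day 2 DRGs, 7.14, 6.56, 4.33 and 7.27 in WT day 5 DRGs and 6.14, 4.57, 7.85 and 5.87 in KO day 2 DRGs. The log2 marker sums of the same samples were 14.17, 14.10, 16.27 and 16.00, then 15.86, 15.67, 12.57 and 16.18, and then 15.23, 13.11, 16.30 and 14.58. The high and the low samples were the same in both. Over 24 samples r was 0.97 for *Mmp8* (rho = 0.96, permutation p = 1e-05, adjusted p = 0.00036 and 0.00029) and 0.87 for *Mmp9* (rho = 0.86, permutation p = 7e-05, adjusted p = 0.00092 and 0.00084), and without the 2 farthest samples it was 0.95 and 0.86. Within dyes r lay between 0.96 and 0.97 for *Mmp8* and between 0.75 and 0.98 for *Mmp9*, and within slides between 0.95 and 0.98 and between 0.73 and 0.95. These were the 2 of 72 members with an adjusted p under 0.05 for r, and *Adamts5* passed for rho alone (r = 0.51, rho = 0.59, permutation adjusted p = 0.11 and 0.045). At an unadjusted p under 0.05 there were 5 members, against 4.30% of detected genes. The lesion did not give a call for *Mmp8* (0.62 at day 2 and 0.83 at day 5, adjusted p = 0.412 and 0.258), *Mmp9* (0.38 and 0.62, adjusted p = 0.479 and 0.221) or any of the 4 neutrophil markers.

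**Figure D4:**
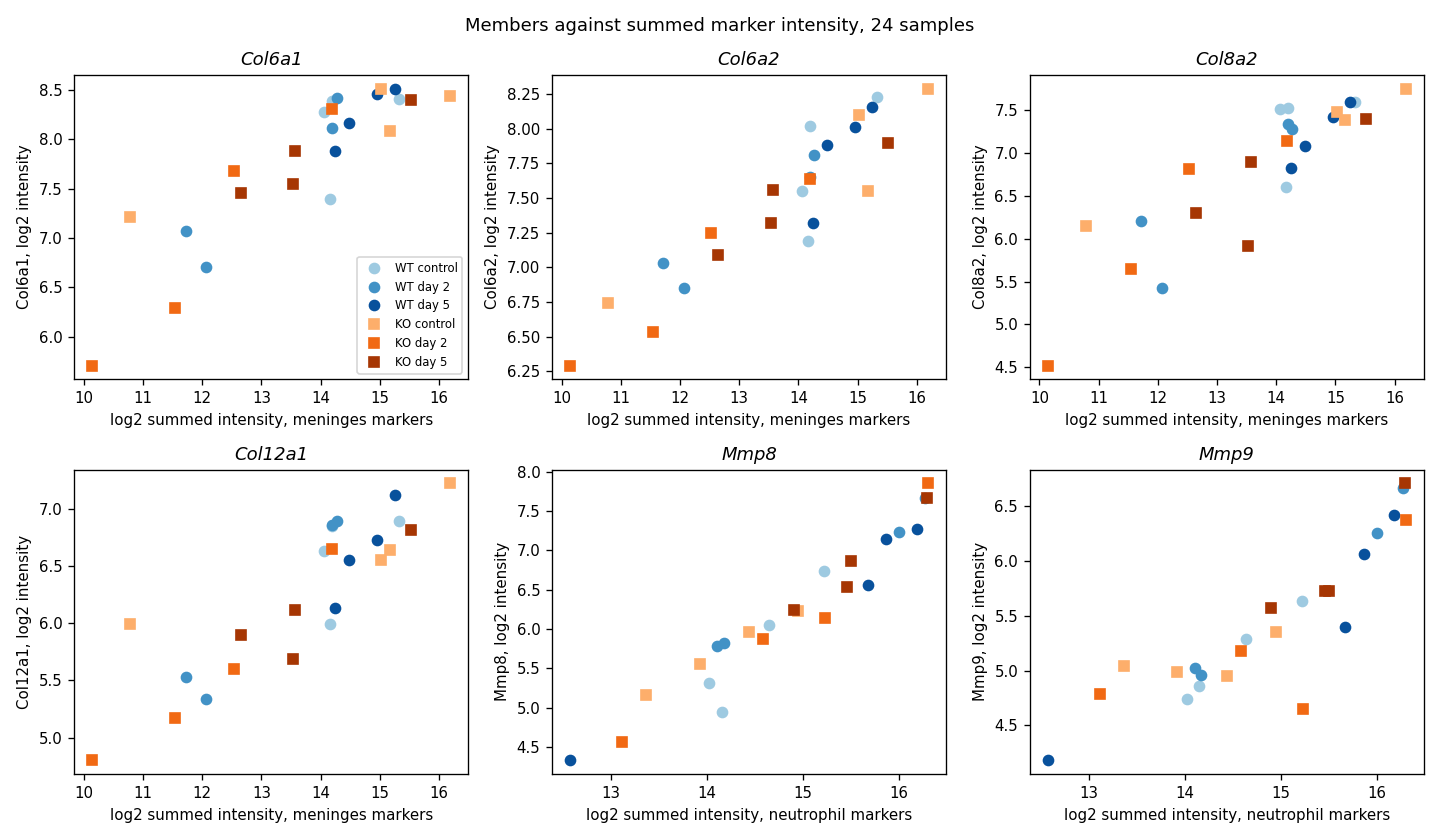
Log2 intensity of *Col6a1*, *Col6a2*, *Col8a2* and *Col12a1* against the log2 summed intensity of 4 meninges markers, and of *Mmp8* and *Mmp9* against that of 4 neutrophil markers, in 24 samples (circles WT, squares KO, darker with time after lesion). The lowest collagen values are those of day 2 samples with low meninges marker sums, such as KO day 2 replicate 2 with a sum of 10.14, and *Mmp8* rises with the neutrophil sum in all groups (r = 0.97).

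The last question was whether the loss of *Nfil3*, a transcriptional repressor, changed these genes. No member was called for KO minus WT in control DRGs, at day 2 or at day 5, where 0, 0.0146% and 0.0109% of all genes were called, and none in the F test of the time*genotype interaction, where 0 genes were called. At an unadjusted p under 0.05 there were 1, 9 and 1 of the 86 members in the 3 comparisons, against 1.70%, 3.81% and 2.38% of all genes, and 4 members for the interaction, against 2.12%. At day 2, 6 of the 9 were lower and 3 higher in KO. All 39 alternatives gave 0 calls among the members in these 4 tests. Even the deleted gene was called in only part of these tests. On its brightest probe, *Nfil3* was called for KO minus WT at day 2 (-5.85, limma adjusted p = 0.00819) and day 5 (-6.49, adjusted p = 0.00259). It was not called in control DRGs (-3.98, unadjusted p = 8.68e-05) or in the interaction (unadjusted p = 0.0992). Its other probe was not called there either (unadjusted p = 1.25e-05 and 0.00907). The KO control values of *Nfil3* spread widely (SD 2.03, standard error of the difference 0.81). It therefore does not measure how small a change of a detected member could be called. An absence of calls in these tests does not show that the members were unchanged. Lesion changes were called in both genotypes on their own, for 10 members at day 2 (11.0% of all genes) and 13 at day 5 (13.9%) in WT, and for 14 (11.8%) and 13 (12.7%) in KO.

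*Mmp16* rose by 3.09 and 3.61 in WT and by 2.80 and 3.47 in KO, and *Col7a1* by 1.83 and 2.15 in WT and by 1.71 and 2.12 in KO. *Timp1* rose by 3.19 at day 2 and 2.58 at day 5 in WT and by 3.10 and 1.80 in KO. At day 5 all 4 KO values of *Timp1* were below all 4 WT values, with a difference of -0.45 (unadjusted p = 0.0393, limma adjusted p = 1 after rounding), and the interaction was not called (unadjusted p = 0.0262, adjusted p = 1 after rounding).

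*Col25a1*, a transmembrane collagen of neurons, had the smallest interaction p of the members (unadjusted p = 0.000611, adjusted p = 1 after rounding). In control DRGs the values were 5.16, 5.26, 5.25 and 5.29 in WT and 5.40, 5.64, 5.70 and 5.76 in KO, and all KO samples were higher. At day 2 they were 5.53, 5.31, 5.56 and 5.09 in WT and 5.18, 5.09, 4.94 and 4.88 in KO. At day 5 the values of 5.13, 5.28, 5.02 and 5.23 in WT and 5.15, 4.96, 5.30 and 5.21 in KO overlapped. KO minus WT was 0.38 in control DRGs and -0.35 at day 2 (unadjusted p = 0.00255 and 0.00472). The lesion change was called in KO, with -0.60 at day 2 and -0.47 at day 5 (adjusted p = 0.00113 and 0.00767), and not in WT, with 0.13 and -0.08 (adjusted p = 0.548 and 0.793). The mean of both genotypes, -0.23 and -0.27 (adjusted p = 0.0381 and 0.015), thus rests on the KO samples, and its day 2 call was lost when any of 10 samples was left out (adjusted p from 0.0599 to 0.0841), while its F test call was lost without KO control replicate 3 or 4 (adjusted p = 0.0567 and 0.0611).

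*Mmp28* had the smallest p for KO minus WT at day 2. Its values were 5.24, 4.97, 5.05 and 5.04 in WT and 4.45, 4.54, 4.37 and 4.71 in KO, so that all KO values were lower (difference -0.56, standard error 0.14, unadjusted p = 0.000859, adjusted p = 0.788). Its interaction had an unadjusted p of 0.0204. *Col9a1* (interaction, unadjusted p = 0.022) was well above background in 4 of 24 samples, and *Mmp21* (0.80 higher in KO control DRGs, unadjusted p = 0.0746) in 1. For *Col5a2* the day 5 values were 8.11, 7.93, 7.76 and 8.09 in WT and 7.70, 7.60, 7.71 and 7.56 in KO. All KO values were lower, with a difference of -0.33 (unadjusted p = 0.0811, adjusted p = 1 after rounding).

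**Figure D5:**
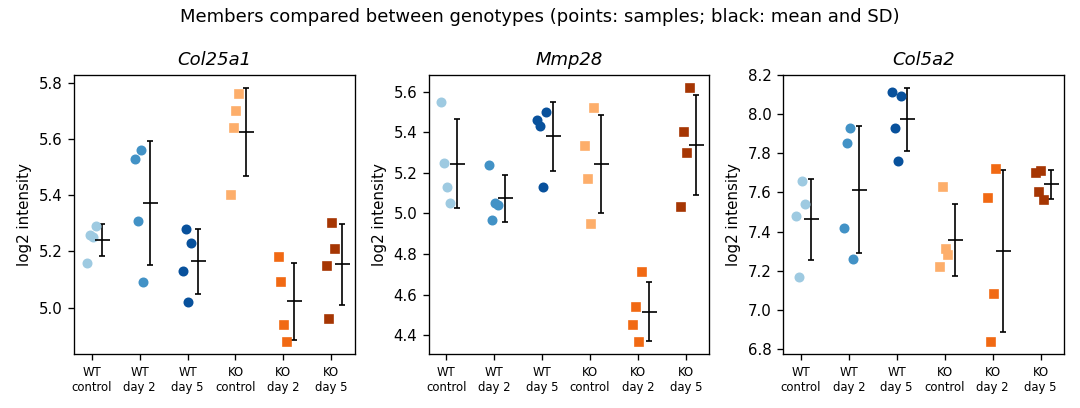
Log2 intensity (y axis) of *Col25a1*, *Mmp28* and *Col5a2* in each sample of the 6 groups (circles WT, squares KO), with the group mean and SD in black. *Mmp28* is lower in KO (4.37 to 4.71) than in WT (4.97 to 5.24) at day 2, but no difference between genotypes passed the adjusted threshold.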

How the data were processed

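RNA of 24 DRG samples was labelled with Cy3 or Cy5 and hybridised in pairs to 12 two-colour Agilent arrays on 3 slides, with 2 samples per group and dye. The authors deposited scanner output with foreground and background intensity per spot, not normalized, and each channel was used as 1 sample. With limma 3.58.1 in R 4.3.3, intensities were background-corrected (Edwards), quantile-normalized over the 24 channels and put on a log2 scale. Control spots and outlier spots were left out, and spots of a probe were averaged. Each group had 1 mean in lmFit and eBayes, and p-values were adjusted over 41174 probes. Samples were grouped by their labels, and p-values measure the spread between these samples.

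The members and gene lists were chosen with earlier results of these data known. Genes were named if called with at least a 2-fold lesion change, if smallest in p for genotype or interaction, or from a list of well-known members. Other genes given with values were chosen after their values were seen. Alternatives covered background, normalization, probe choice, dye, slide, array, replicate number and each sample left out. The number of arrays limits the precision. A result on protease regulation is not reported here.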

Additional observations from a re-analysis of the deposited data

Results flagged for a closer look

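For the named genes, the sample farthest from the other 3 of its group was tested against Dixon's critical value in 144 groups, and 9 passed, where chance gives about 1 in 20. *Timp1* was 11.22 in WT day 5 replicate 1 (others 10.79 to 10.85) and 8.03 in KO control replicate 3 (others 8.83 to 8.93). *Mmp9* was 6.71 in KO day 5 replicate 4 (others 5.57 to 5.73), the sample with a neutrophil marker sum of 16.29. *Col3a1* was 10.17 (others 11.01 to 11.16) and *Col6a1* 7.39 (others 8.27 to 8.41) in the same sample, WT control replicate 2. *Col4a2* was 8.60 in KO day 5 replicate 1 (others 8.71 to 8.72), *Col18a1* 10.61 in WT day 2 replicate 3 (others 9.90 to 9.98) and *Col9a1* 5.17 in KO day 5 replicate 4 (others 4.12 to 4.16). *Mmp21* was 2.68 in WT day 5 replicate 4 (others 3.51 to 3.65), where it was not well above background.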

How the results depend on the processing

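The lesion changes of *Mmp16*, *Timp1*, *Col7a1*, *Col6a5* and *Col5a3* kept their sign under the 38 alternatives run for them. The 6 members called between day 5 and day 2 became 10 with normexp background, 11 without background correction, 10 with the array as a random block and 4 to 10 when a sample was left out (10 without KO day 2 replicate 4). Without the 4 controls that shared an array with a lesioned sample, an alternative chosen after seeing the data, 18 members were called in the F test (28 with all samples), 14 at day 5 (22) and 8 at day 5 in WT (13). With the meninges marker sum as a covariate, also chosen after seeing the data, 16 were called at day 2 in WT (10). The cause of these shifts was not tested, and the shares of all genes called without the 4 controls or with the covariate were not counted. Leaving out 1 sample gave 23 to 32 calls in the F test, 18 to 23 at each day and 0 for genotype and interaction, and 22 of the 28 F test calls were kept each time. With the replicate number as a block, 26 members were called in the F test. Samples of the same number in different groups correlated with a median of 0.07 (60 pairs), and 13 pairs exceeded 0.1, against a median of -0.03 and 15 of 180 pairs with other numbers. Replicates 1 and 2 were Cy3 and replicates 3 and 4 Cy5, so the number also carries the dye, and the numbers were not taken to pair samples. Signal near background limits *Col6a5* and the secreted MMPs.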
